A study of Homo sapiens with 14 samples.

Results

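The 8 genes described here are neighbours of MYCN on the short arm of human chromosome 2, in band 2p24. They were chosen by position and name only, as DDX1, NBAS, FAM84A, FAM49A, VSNL1, SMC6, GEN1 and KCNS3, and the rule used no measured value. All 8 were found in both count tables, among 17810 genes in the table of OmoMYC and EGFP cells and 19143 genes in the table of parental cells. In CHP-134, an established human neuroblastoma cell line with amplified MYCN, RNA was sequenced from 14 cultures in 2 separate experiments. The study's methods describe rRNA depletion but do not restate it for the EGFP and OmoMYC libraries.

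In the first experiment, cells carried a Tet-On lentiviral transgene for EGFP or for OmoMYC, a mutated MYC dimerization domain that blocks MYC proteins, and were given 1 µg/ml doxycycline for 3 days (3 biological replicates each). Each transgene was carried by its own engineered line, so effects of the line and of the transgene cannot be told apart. In the second experiment, parental cells without any transgene received 500 nM dTAG47, a degrader of FKBP12(F36V)-tagged proteins, or DMSO for 18 h (4 biological replicates each). No tagged protein is present in these parental cells, which the study used to look for effects of the compound itself.

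Amplification in neuroblastoma copies a stretch of 2p24 that always holds MYCN and reaches outward by a length that differs between tumours and cell lines. DDX1 and NBAS lie closest on the telomeric side and are often amplified along with it, whereas genes further out are included less often. Copy number was not measured in these files, and where the amplified stretch ends in CHP-134 was not tested.

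Positions are from the GENCODE annotation on GRCh37, the sequence of hg19. MYCN (ENSG00000134323.10) spans chr2:16080672-16087129 on the plus strand. On its telomeric side, NBAS (ENSG00000151779.8, chr2:15307040-15701464, minus strand) starts 379 kb away and DDX1 (ENSG00000079785.10, chr2:15731302-15774470, plus strand) starts 349 kb away. Their starts face apart and lie closer to each other than to MYCN. FAM84A (ENSG00000162981.12, chr2:14772824-14790938, plus strand), now named LRATD1, starts 1308 kb out on the same side. On the centromeric side, FAM49A (ENSG00000197872.7, chr2:16730727-16847599, minus strand), now named CYRIA, starts at 767 kb and VSNL1 (ENSG00000163032.7, chr2:17720393-17838285, plus strand) at 1640 kb. GEN1 (ENSG00000178295.10, chr2:17935125-17970213, plus strand) follows at 1854 kb, SMC6 (ENSG00000163029.11, chr2:17845079-17981509, minus strand) at 1901 kb and KCNS3 (ENSG00000170745.7, chr2:18059114-18542882, plus strand) at 1978 kb.

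Of the 8, 7 have an entry in the RefSeq promoter table (build GRCh38.p14), and each of their 250-base upstream windows matched hg19 chromosome 2 exactly once. The windows below are shown because they belong to genes that moved in opposite directions with OmoMYC, FAM84A and VSNL1 upward and NBAS and KCNS3 downward. Capitals mark CANNTG, the 6-base core bound by MYC with its partner and by many other helix-loop-helix factors. Each is written 5′ to 3′ on the strand of its gene, and for VSNL1 and KCNS3 the more upstream of their RefSeq starts was taken.
FAM84A (hg19 chr2:14772591-14772840, plus strand): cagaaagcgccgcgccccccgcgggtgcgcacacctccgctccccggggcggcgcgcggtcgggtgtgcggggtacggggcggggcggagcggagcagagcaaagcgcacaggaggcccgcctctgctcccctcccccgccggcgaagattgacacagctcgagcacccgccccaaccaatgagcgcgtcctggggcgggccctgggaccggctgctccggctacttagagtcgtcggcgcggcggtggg
VSNL1 (hg19 chr2:17720989-17721238, plus strand): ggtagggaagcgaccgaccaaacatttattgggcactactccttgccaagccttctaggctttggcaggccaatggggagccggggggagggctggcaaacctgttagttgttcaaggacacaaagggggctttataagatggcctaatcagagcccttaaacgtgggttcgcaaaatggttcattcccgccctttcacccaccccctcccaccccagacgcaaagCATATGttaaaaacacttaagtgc
NBAS (hg19 chr2:15701459-15701708, minus strand): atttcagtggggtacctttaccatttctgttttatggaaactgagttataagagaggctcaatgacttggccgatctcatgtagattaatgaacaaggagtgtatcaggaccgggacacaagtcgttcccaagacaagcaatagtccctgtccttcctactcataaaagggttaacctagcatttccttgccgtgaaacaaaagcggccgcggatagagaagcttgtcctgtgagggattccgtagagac
KCNS3 (hg19 chr2:18058864-18059113, plus strand): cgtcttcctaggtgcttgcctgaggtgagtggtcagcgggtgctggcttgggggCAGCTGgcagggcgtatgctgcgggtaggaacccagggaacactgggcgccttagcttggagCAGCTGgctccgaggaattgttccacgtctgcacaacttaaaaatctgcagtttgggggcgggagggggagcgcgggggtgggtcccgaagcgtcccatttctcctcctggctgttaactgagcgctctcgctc

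No window of the 7 genes, these 4 included, held CACGTG, the form of the core that MYC prefers, on either strand. It was found in 6.34% of 35116 RefSeq promoter windows of the same length. CANNTG, which reads as CANNTG on the other strand as well and includes CACGTG, was in 61.8% of those windows. Among the windows shown, KCNS3 held 2 matches, VSNL1 held 1, and NBAS and FAM84A held 0. The windows of the other RefSeq starts of KCNS3 and VSNL1, which are not shown, held 0. The matches are letters in a window and no binding was measured here.

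SMC6 and GEN1 are transcribed away from each other, and 58 bases lie between their nearest RefSeq starts. The stretch between them is shown because it lies upstream of these RefSeq starts of both genes, which both fell with OmoMYC. In the GENCODE models given above, the stretch lies inside SMC6, whose start there is further centromeric, and reaches past the start of GEN1. The stretch is 82.8% G and C and holds 1 CANNTG, in capitals, and it is written on the plus strand.
SMC6-GEN1 (hg19 chr2:17935078-17935135, plus strand): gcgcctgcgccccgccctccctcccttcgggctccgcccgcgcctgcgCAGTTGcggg

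The gene models of SMC6 and GEN1 overlap by 35089 bases, but their merged exons share only 107 bases, which are 1.09% of the exon bases of SMC6 and 0.904% of those of GEN1. Whether reads were counted by strand is not stated, so reads from these shared bases, and from any antisense gene over a member, cannot be told apart.

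Library totals were 28060817 to 38358128 counts in the OmoMYC experiment and 40861430 to 53451641 in the parental experiment. All 4 groups expressed neuroblastoma genes, with 7 or 8 of 9 such markers above 1 CPM (counts scaled by edgeR's TMM library sizes). TH, the enzyme that starts catecholamine synthesis, was under 1 CPM in every group. EGFP replicate 1 was set off from its group: DDX1 was 0.18 above its group mean and MYCN 0.17 below it (log2 CPM). NBAS, SMC6 and GEN1 were also above, by 0.13 to 0.21. Whether this was particular to 2p24 was not tested. The 5 genes that followed DDX1 most closely across the libraries, named below, were not among its neighbours here. The log2 fold changes of DDX1, NBAS, SMC6, GEN1 and MYCN, the ratios to MYCN and the share of counts are also given without EGFP replicate 1.

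Levels of the 8 genes differed widely. To compare genes, CPM over the 17227 identifiers shared by both tables were divided by the length of merged exons, and genes were ranked among the 13235 tested in both experiments. DDX1, an RNA helicase of the tRNA ligase complex, was at 3365 ± 371 CPM per kb in EGFP, 2600 ± 71.1 in OmoMYC (SD, n = 3 each), 3366 ± 139 in DMSO and 3309 ± 109 in dTAG47 (SD, n = 4 each). It ranked 4th, 8th, 9th and 10th in these groups, and 1st in every group when the length of the canonical transcript was used instead. MYCN stood between 818 and 1050 CPM per kb, at ranks 17 to 20, and at ranks 36 to 48 by the length of the canonical transcript.

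NBAS, which acts in tethering Golgi-derived vesicles at the endoplasmic reticulum and in nonsense-mediated decay, was the next highest neighbour at 40.1 to 49.5 CPM per kb (means of the 4 groups). These levels were 8.29 to 9.96 times the median gene, with 93.6% to 95.0% of genes below it. Although NBAS and DDX1 lie side by side, their levels per kb differed far more than either varied between libraries. SMC6, a subunit of the SMC5/6 chromosome maintenance complex, and GEN1, a nuclease that resolves Holliday junctions, were close to the median gene. SMC6 had 1.31 to 2.05 times its level and GEN1 0.83 to 1.5 times.

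The other genes were below the median gene in EGFP, DMSO and dTAG47 cells. FAM84A, a protein with an LRAT domain, had 31.6% to 35.3% of genes below it in these groups. KCNS3, a modulatory subunit of voltage-gated potassium channels, had 31.9% to 36.2% below. FAM49A, which binds RAC1 and opposes the actin-regulating WAVE complex, had 6.3% to 10.9% below, and VSNL1, a neuronal calcium sensor, had 10.6% to 10.9% below. In OmoMYC cells the ranks of VSNL1 and FAM84A rose to the middle of all genes or past it, with 50.4% and 59.6% of genes below them. By canonical transcript length the values were 49.7% for VSNL1 and 54.2% for FAM84A, so VSNL1 stood at about the middle.

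**Figure D1:**
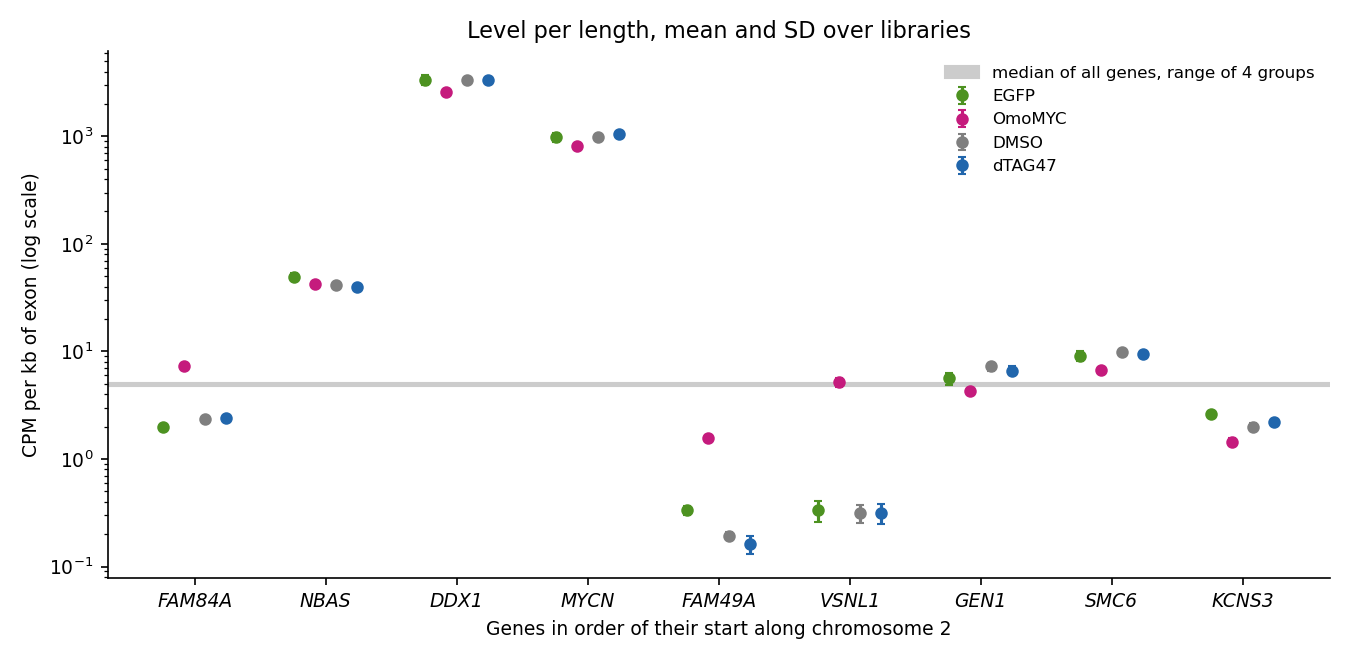
Level per length of MYCN and its 8 neighbours in the 4 groups (CPM over shared genes per kb of merged exon, log axis; points are means and bars SD over 3 or 4 libraries; genes in order along chromosome 2). DDX1 and MYCN stand far above the grey band, which marks the median of all genes, while FAM49A and VSNL1 lie below it except for VSNL1 with OmoMYC.

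The order of groups differed from gene to gene, and levels in the 2 tables were set side by side with no test. For DDX1 and for SMC6 and GEN1, OmoMYC was the lowest group and did not overlap its neighbour in the order. Each of the groups above it overlapped the next in the order. For GEN1, all EGFP libraries (60.6 to 76.4 CPM over shared genes) were below all DMSO libraries (78.1 to 95.6), and dTAG47 overlapped both. NBAS was highest in EGFP, and its OmoMYC libraries overlapped the DMSO libraries. For FAM84A, FAM49A and VSNL1 the OmoMYC group was the highest and stood apart from the next. KCNS3 was highest in EGFP and lowest in OmoMYC, with both parental groups between and apart from them.

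The question of the OmoMYC experiment was which genes respond when MYC proteins are inhibited in these cells. All 8 neighbours passed the filter on low counts and all 8 passed the edgeR quasi-likelihood test (FDR below 0.05 over 13803 genes), 3 higher and 5 lower with OmoMYC. This was not particular to the region, as 53.0% of all tested genes were called, 27.3% higher and 25.7% lower. The OmoMYC and EGFP libraries did not overlap for any of the 8, against 62.3% of all genes. Their median log2 fold change was -0.31, against 0.01 for all genes. In bulk RNA, fewer cells expressing a gene and less RNA per cell cannot be told apart.

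The 3 genes that rose were VSNL1, FAM49A and FAM84A, each past 2-fold, a size reached upward by 6.68% of all tested genes. VSNL1 had 48, 37 and 28 counts in EGFP replicates 1 to 3 and 633, 748 and 540 in OmoMYC replicates 1 to 3. On the CPM scale this was 1.51, 1.32 and 0.964 against 21.6, 19.4 and 17.8. Every OmoMYC library was far above every EGFP library. The log2 fold change was 3.94 ± 0.16 (SE; adjusted p = 2.54e-08), a 15.3-fold rise that ranked 73rd among the 3766 genes called higher.

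FAM49A had 1.92, 1.61 and 1.93 CPM in EGFP and 8.8, 9 and 7.92 CPM in OmoMYC libraries, from 45 to 61 and 241 to 347 counts. The groups were far apart, and the log2 fold change was 2.23 ± 0.13 (SE; adjusted p = 6.25e-07), or 4.7-fold. FAM84A was at 18, 16.1 and 15.7 CPM in EGFP and 65.4, 56.5 and 60.2 CPM in OmoMYC. Within a group its libraries differed little, and the log2 fold change was 1.87 ± 0.09 (SE; adjusted p = 1.16e-07), or 3.65-fold. FAM49A ranked 236th and FAM84A 308th among the genes called higher.

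Among the 5 genes that fell, KCNS3 changed most. Its CPM was 8.8, 7.81 and 8.06 in EGFP and 4.94, 4.46 and 4.11 in OmoMYC, from 218 to 279 and 125 to 172 counts. All OmoMYC values were below all EGFP values, and the log2 fold change was -0.87 ± 0.12 (SE; adjusted p = 0.000184). It ranked 345th among the 3545 genes called lower.

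For the gene pair with nearby RefSeq starts, SMC6 was at 102, 88 and 81.5 CPM in EGFP and 67.9, 65.9 and 62.2 CPM in OmoMYC. GEN1 was at 77, 62.8 and 60.6 CPM in EGFP and 47.9, 52.7 and 49.4 CPM in OmoMYC. EGFP replicate 1 was the highest library of both. The log2 fold changes were -0.47 ± 0.09 (adjusted p = 0.00152) for SMC6 and -0.42 ± 0.10 (adjusted p = 0.00476) for GEN1, with SE. Without EGFP replicate 1 they were -0.39 and -0.32, both still called.

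DDX1 gave 38644, 32725 and 31256 CPM in EGFP and 26403, 26808 and 25288 CPM in OmoMYC. The EGFP libraries were widely spread, with replicate 1 on top, and the OmoMYC libraries were close together below them. The log2 fold change was -0.39 ± 0.08 (SE; adjusted p = 0.00216), as DDX1 decreased by 23.5%, and it was -0.31 without EGFP replicate 1. NBAS was at 1142, 1021 and 977 CPM in EGFP and 899, 908 and 856 CPM in OmoMYC. Its log2 fold change was -0.24 ± 0.07 (SE; adjusted p = 0.0152), the smallest of the 8, and it was -0.19 without EGFP replicate 1.

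MYCN itself, which was not counted among the 8, was at 2408, 2829 and 2899 CPM in EGFP and 2226, 2181 and 2311 CPM in OmoMYC. Here EGFP replicate 1 was the lowest of its group, the opposite of its place for DDX1. The log2 fold change was -0.28 ± 0.07 (SE; adjusted p = 0.0103) and -0.37 without that library.

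**Figure D2:**
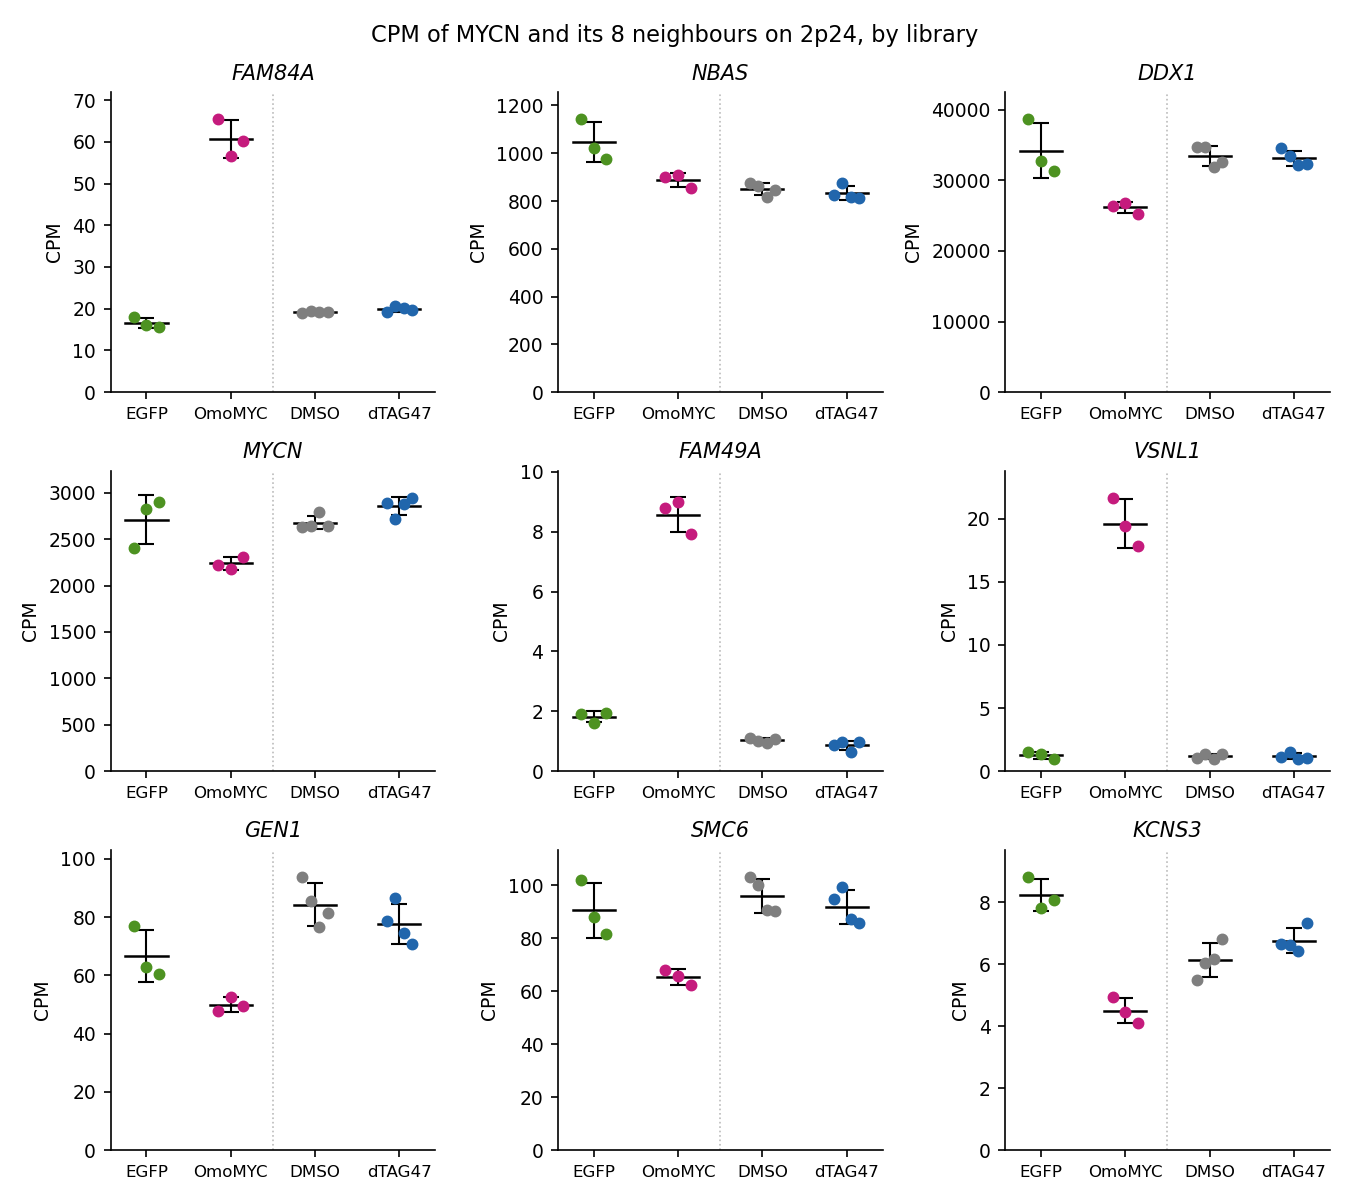
CPM (TMM-scaled) of MYCN and its 8 neighbours in each library, with genes in chromosome order (points are libraries, lines are means, bars are SD; the dotted line separates the 2 experiments, which were scaled separately). OmoMYC libraries lie above EGFP for FAM84A, FAM49A and VSNL1 and below EGFP for the other 6 panels, while DMSO and dTAG47 overlap in all 9.

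Markers of other states moved in the same libraries. With OmoMYC, 5 of 9 neuroblastoma markers were called higher and 0 lower, against 27.3% higher and 25.7% lower over all genes, which also applies to the marker counts that follow. Their summed level was 1427 to 1707 CPM in EGFP and 1652 to 1748 CPM in OmoMYC. Of 7 mesenchymal markers 1 was called higher and 2 lower, with a summed level of 193 to 221 CPM in EGFP and 162 to 179 CPM in OmoMYC. The 5 fibroblast and blood cell markers in the table summed to 18.8 to 25.6 CPM in EGFP and 29.3 to 37.2 CPM in OmoMYC, nearly all from the collagen gene COL1A1, and of the 3 tested 2 were called higher and 1 lower. PECAM1, an endothelial marker, was listed at 0 in EGFP and at 0.02 CPM in OmoMYC. Their part in the changes at 2p24 was not tested.

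By distance from MYCN the directions were mixed. DDX1 and NBAS, the nearest pair, were lower, as was MYCN. FAM49A and VSNL1, next on the centromeric side, rose, and GEN1, SMC6 and KCNS3 beyond them fell. Genes outside the window were taken from lists of each flank. Of 18 tested on the telomeric flank, 3 rose and 9 fell (median log2 fold change -0.30), and of 12 on the centromeric flank 3 rose and 5 fell (median -0.32), against 27.3% higher and 25.7% lower over all tested genes. Of those called, the most changed telomerically were KLF11 (1.68 ± 0.11, adjusted p = 1.68e-06) and KCNF1 (1.34 ± 0.27, adjusted p = 0.00206). Centromerically, the most changed of those called were OSR1 (1.76 ± 0.18, adjusted p = 3.16e-05) and WDR35 (-0.65 ± 0.09, adjusted p = 0.000208). KLF11 and OSR1 are transcription factors, KCNF1 is a potassium channel subunit and WDR35 acts in cilia. KLF11 was at 3.58 CPM in EGFP, 11.4 in OmoMYC, 12.9 in DMSO and 13.5 in dTAG47, so parental levels were nearer to OmoMYC. For KCNF1, OSR1 and WDR35 the parental levels were nearer to EGFP. The experiments were scaled separately, and no test was made between them. The medians of both flanks were close to that of the 8 neighbours. RAD51AP2 and MSGN1, in the same window as the 8, did not pass the filter on low counts in either experiment.

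**Figure D3:**
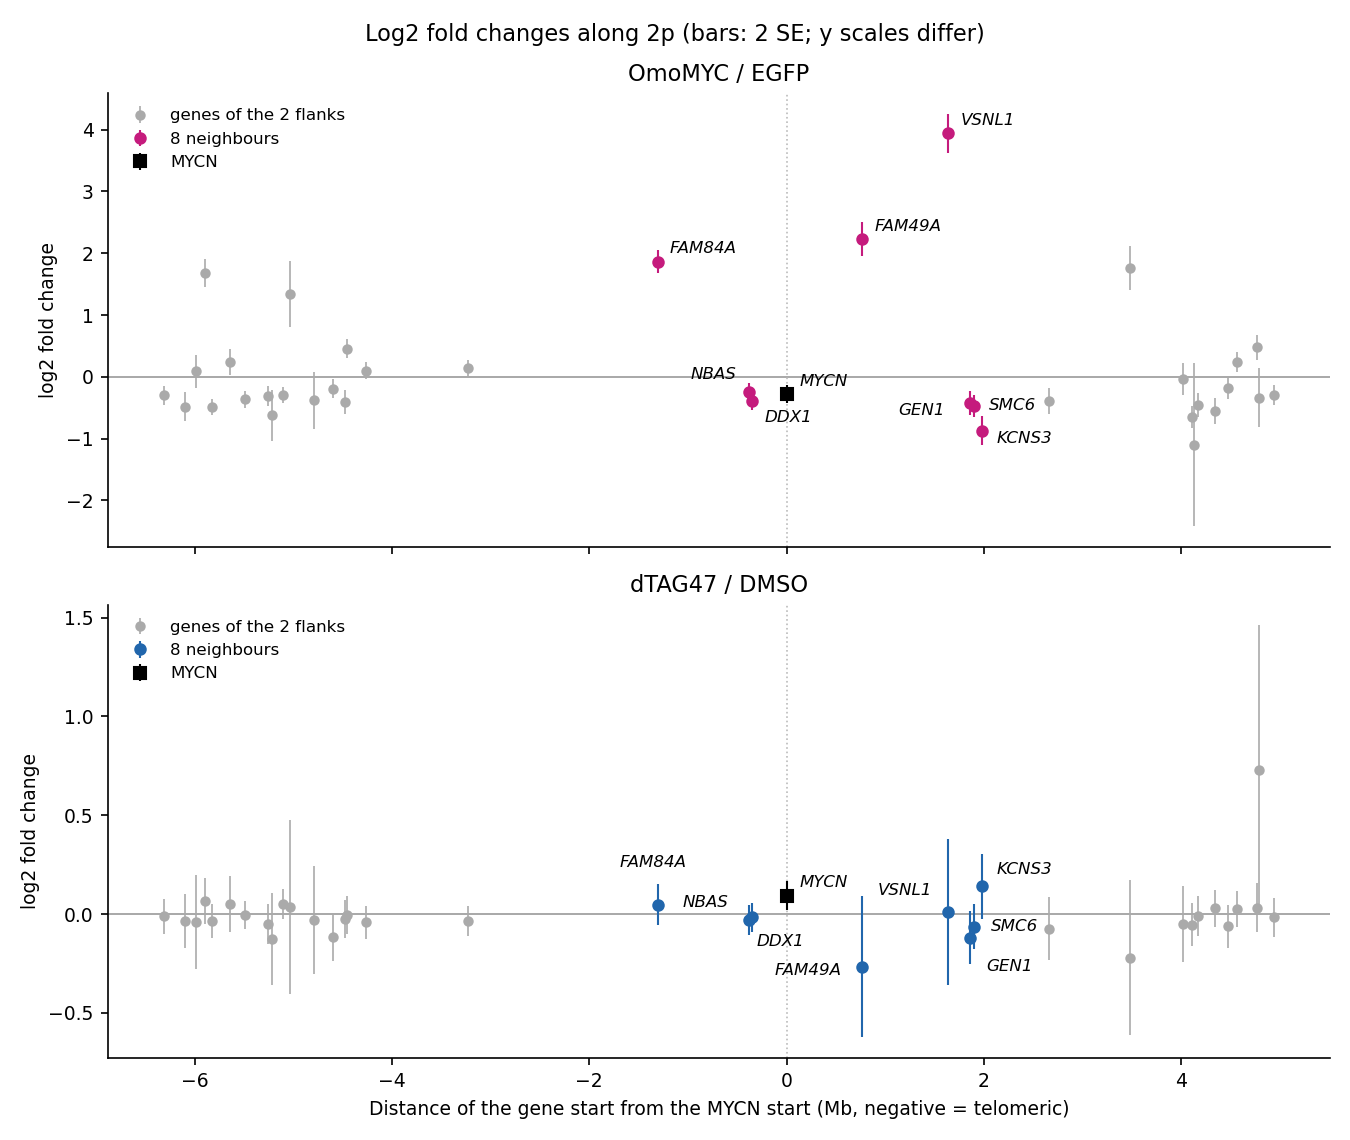
Log2 fold change against distance of the gene start from the MYCN start (Mb, negative is telomeric) for OmoMYC over EGFP (top) and dTAG47 over DMSO (bottom), with bars of 2 SE and separate y scales. In the top panel FAM84A, FAM49A and VSNL1 lie between 1.87 and 3.94 and the other 5 neighbours between -0.87 and -0.24, and in the bottom panel the bars of all 8 neighbours cross 0.

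DDX1 dominated the counts of the region. The 8 genes together took 3.96%, 3.38% and 3.24% of the counts in EGFP replicates 1 to 3 and 2.76%, 2.81% and 2.66% in OmoMYC replicates 1 to 3, and DDX1 alone supplied 95.9% to 96.6% of these. The groups did not overlap, and the difference of means was -0.785 percentage points (exact permutation test, two-sided p = 0.1, the smallest that 3 against 3 allows). Without EGFP replicate 1 it was -0.566 percentage points, and for the 7 genes other than DDX1 it was -0.0123 percentage points.

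Ratios of genes within a library need no scaling between libraries. The ratio of DDX1 to MYCN counts was 16.1, 11.6 and 10.8 in EGFP and 11.9, 12.3 and 10.9 in OmoMYC. These groups overlapped, with a log2 difference of -0.11 (exact permutation p = 0.9) that turned to 0.07 without EGFP replicate 1. NBAS to MYCN was likewise mixed, at 0.391 ± 0.0734 in EGFP and 0.397 ± 0.0238 in OmoMYC (SD, n = 3 each; exact permutation p = 0.9), with a log2 difference of 0.04 that became 0.18 without EGFP replicate 1. Without that library, NBAS to MYCN was 0.361 and 0.337 in EGFP and 0.404, 0.416 and 0.37 in OmoMYC. These values did not overlap (exact permutation p = 0.2). Over all libraries both ratios overlapped between groups. The test cannot go below 0.1 with 3 against 3, so it cannot decide whether DDX1 or NBAS changed relative to MYCN.

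Relative to MYCN, the log2 difference was 4.24 for VSNL1, 2.51 for FAM49A, 2.14 for FAM84A and -0.60 for KCNS3. In each of these 4 the groups did not overlap, which gives the smallest exact permutation p of this design, 0.1 (0.2 after adjustment over the 8 ratios). With EGFP replicate 1 left out, the 4 differences were, in the same order, 4.47, 2.64, 2.28 and -0.46. SMC6 (-0.19, exact permutation p = 0.4) and GEN1 (-0.14, exact permutation p = 0.7) overlapped between groups. Without EGFP replicate 1 these values were -0.02 and 0.05, and without EGFP replicate 3 SMC6 was at -0.31 with groups that did not overlap (exact permutation p = 0.1). None of the 8 ratios could reach 0.05 with 3 libraries a group.

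The ratio of NBAS to DDX1 was added after the counts had been seen. It was 0.0295, 0.0312 and 0.0313 in EGFP and 0.034, 0.0339 and 0.0338 in OmoMYC. The OmoMYC libraries were almost equal and all above EGFP (log2 difference 0.15, exact permutation p = 0.1, the smallest possible). In parental cells it was lower, at 0.0254 ± 0.000435 in DMSO and 0.0252 ± 0.000956 in dTAG47 (SD, n = 4 each), and these groups overlapped (exact permutation p = 0.714).

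SMC6 to GEN1, also added after the counts had been seen, was 1.32, 1.4 and 1.35 in EGFP and 1.42, 1.25 and 1.26 in OmoMYC. These values overlapped, with a log2 difference of -0.05 (exact permutation p = 0.5). The ratio was 1.14 ± 0.0423 in DMSO and 1.18 ± 0.0298 in dTAG47 (SD, n = 4 each; exact permutation p = 0.143).

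**Figure D4:**
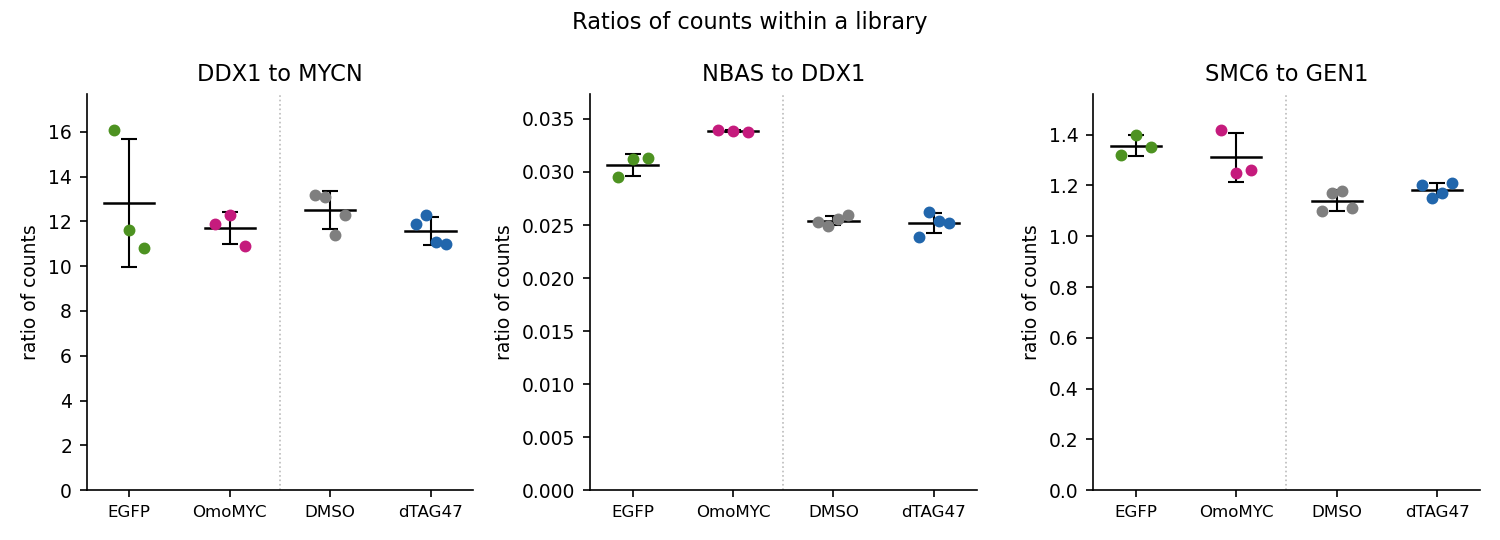
Ratios of counts within each library for DDX1 to MYCN, NBAS to DDX1 and SMC6 to GEN1 (points are libraries, lines are means, bars are SD). EGFP replicate 1 stands out at 16.1 for DDX1 to MYCN, and the 3 OmoMYC libraries lie together at 0.0338 to 0.034 for NBAS to DDX1.

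Across all 14 libraries, each gene was centred within its experiment and compared with 8958 genes of at least 10 CPM by the root mean square difference of log2 CPM. The 5 genes nearest to DDX1 were NARS (0.0145), STRAP (0.0173), EPRS (0.0218), METAP2 (0.0232) and ETF1 (0.0239). NARS and EPRS charge tRNAs, METAP2 trims the first methionine from proteins and ETF1 ends translation, while no function is given here for STRAP. Whether the nearest genes share a function was not tested. Among the other genes of the region, SMC6 was 357th nearest to DDX1, NBAS 521st, GEN1 1191st, MYCN 3867th and FAM84A 8934th. KCNS3, VSNL1 and FAM49A were below 10 CPM in parental cells and were not ranked. For NBAS the 5 nearest were TRIP12 (0.0192), RALGAPB (0.0202), KIAA0196 (0.0228), AP3M2 (0.0255) and USP9X (0.0255), with DDX1 653rd, MYCN 4086th and FAM84A 8935th. Because each gene was centred over both groups of an experiment, the distances include the difference between its groups. These distances are descriptions, and libraries of an experiment share their scaling.

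Partners of the encoded proteins were taken from fixed lists, whatever their position. Among 7 tested genes of the DDX1-containing tRNA ligase complex and its assembly factors, 0 rose and 5 fell (median log2 fold change -0.22), against 27.3% and 25.7% of all genes. FAM98B (-0.48 ± 0.16, adjusted p = 0.024) and C14orf166 (-0.43 ± 0.09, adjusted p = 0.00225), both subunits, fell most, and RTCB, the catalytic subunit, changed by -0.11 without passing (adjusted p = 0.171). C14orf166 was at 136 CPM in EGFP, 101 in OmoMYC, 104 in DMSO and 103 in dTAG47, so parental levels were nearer to OmoMYC. FAM98B was at 48.4, 34.6, 64 and 59.4 CPM in the same order, with parental levels nearer to EGFP. Of 13 NBAS partners, 5 rose and 6 fell (median 0.03), against the same shares. ZW10 (-0.45 ± 0.08, adjusted p = 0.00101) and RINT1 (-0.40 ± 0.09, adjusted p = 0.00496), which form the vesicle tether with NBAS, fell, while USE1, which works with the tether, rose (0.41 ± 0.10, adjusted p = 0.00612). UPF1 (0.98 ± 0.08, adjusted p = 8.62e-06) and SMG6 (0.61 ± 0.10, adjusted p = 0.000558), which act in nonsense-mediated decay, rose, while SMG1, a kinase of the same pathway, fell (-0.26 ± 0.07, adjusted p = 0.00979). USE1 and SMG1 were named after their values were seen.

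Around SMC6, 0 of 8 partners rose and 5 fell (median -0.38), among them SMC5 (-0.41 ± 0.08, adjusted p = 0.00144), with which SMC6 forms its dimer. ANKRD32, also called SLF1, had the largest drop at -0.92 ± 0.13 (adjusted p = 0.000252), followed by EID3 at -0.76 ± 0.19 (adjusted p = 0.00589). Of 8 tested genes that act on recombination intermediates like GEN1, 1 rose and 4 fell (median -0.29). Over all genes 27.3% were called higher and 25.7% lower, beside which the counts for SMC6 and GEN1 partners can be read. RMI2 (-0.86 ± 0.09, adjusted p = 2.64e-05) and BLM (-0.74 ± 0.08, adjusted p = 6.09e-05), parts of the complex that dissolves double Holliday junctions, fell most.

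For the genes that rose, relatives did not all follow, and the counts here stand beside 53.0% of all genes called, 27.3% higher and 25.7% lower. Of 4 tested neuronal calcium sensors related to VSNL1, 1 rose, HPCAL4 (1.26 ± 0.16, adjusted p = 0.000101), and 3 were not called (median 0.06). Of 11 genes around FAM49A in RAC1 and WAVE signalling, 2 rose and 6 fell (median -0.19), with CYFIP2 (0.78 ± 0.07, adjusted p = 8.19e-06) and NCKAP1 (-0.37 ± 0.10, adjusted p = 0.0105), both WAVE complex subunits, in opposite directions. FAM84B, the paralog of FAM84A, fell by 0.42 on the log2 scale (SE 0.12, adjusted p = 0.0146), and the other tested gene of that family was not called (median of the 2 tested genes -0.23).

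Among 7 tested potassium channel genes related to KCNS3, 3 rose and 3 fell (median 0.30), against 27.3% higher and 25.7% lower over all genes. KCNS2, of the same modulatory family, fell by 1.78 on the log2 scale (SE 0.11, adjusted p = 6.25e-07), more than KCNS3, and KCNF1, which also belongs to the telomeric flank, was the largest rise. Over all genes tested the median was 0.01, beside which all of these list medians can be read.

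In parental cells the comparison asked whether dTAG47 alone changes gene expression. None of the 8 neighbours was called by edgeR's quasi-likelihood test, and 0 of 8 were called by DESeq2 or limma-voom. Over all genes 0.159% were called, which is 23 of 14470. At an unadjusted p under 0.05 the count of neighbours was also 0, against 7.28% of all genes, and DMSO and dTAG47 libraries overlapped for all 8, whereas they did not for 3.34% of all genes. The median log2 fold change was -0.02 for the 8.

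DDX1 was at 34681, 34667, 31896 and 32551 CPM in DMSO and 34544, 33417, 32110 and 32320 CPM in dTAG47. The groups lay within the same range, and the log2 fold change was -0.02 with an interval of 2 SE from -0.09 to 0.06. NBAS was at 877, 863, 816 and 844 CPM in DMSO and 826, 876, 817 and 813 CPM in dTAG47, with an interval of -0.11 to 0.05. For both genes the libraries of the 2 groups were interleaved.

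VSNL1, the gene with the largest OmoMYC response, was at 1.04, 1.36, 0.927 and 1.34 CPM in DMSO and 1.15, 1.52, 0.975 and 1.06 CPM in dTAG47. All libraries of both groups overlapped, with a log2 fold change of 0.01 and an interval of -0.36 to 0.38. FAM49A had 1.12, 0.998, 0.951 and 1.09 CPM in DMSO and 0.87, 0.965, 0.637 and 0.985 CPM in dTAG47. Replicate 3 of dTAG47 was the lowest, and the log2 fold change was -0.27 with an interval of -0.62 to 0.09, and -0.14 without that library. FAM84A was nearly level at 19.2 ± 0.212 CPM in DMSO and 19.9 ± 0.646 CPM in dTAG47 (SD, n = 4 each), with an interval of -0.05 to 0.15.

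GEN1 had the smallest p of the 8 (unadjusted p = 0.0923 and adjusted p = 0.68 by edgeR). It was at 93.7, 85.7, 76.7 and 81.3 CPM in DMSO and 78.8, 86.7, 74.5 and 70.7 CPM in dTAG47, with a log2 fold change of -0.12 ± 0.07 (SE). The groups overlapped, and in each of them replicates 1 and 2 were above replicates 3 and 4. With a factor that sets replicates 1 and 2 against 3 and 4, which the labels do not describe, GEN1 passed at the same log2 fold change of -0.12 (adjusted p = 0.0479 by edgeR). DDX1, NBAS and SMC6 also had replicates 1 and 2 above replicates 3 and 4 in each group. SMC6 had a log2 fold change of -0.06, with an interval of -0.18 to 0.05, and KCNS3 had 0.14, with an interval of -0.02 to 0.31.

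MYCN was at 2636, 2643, 2789 and 2647 CPM in DMSO and 2894, 2720, 2880 and 2941 CPM in dTAG47. The groups overlapped by DMSO replicate 3, and the log2 fold change was 0.09 ± 0.04 (SE; unadjusted p = 0.0193, adjusted p = 0.673 by edgeR). With the factor for replicates 1 and 2 against 3 and 4 it passed at the same 0.09 (adjusted p = 0.045 by edgeR). The ratio of DDX1 to MYCN was 12.5 ± 0.814 in DMSO and 11.6 ± 0.621 in dTAG47 (SD, n = 4 each), with an exact permutation p = 0.114 (0.229 after adjustment over the 8 ratios). The share of counts from the 8 genes was 3.3% to 3.6% in DMSO and 3.3% to 3.52% in dTAG47 (difference of means -0.062 percentage points, exact permutation p = 0.571). No gene in any of the partner, family or flank lists was called with dTAG47.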

How the data were processed

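RNA-seq libraries of CHP-134 cells were analysed from 2 tables of counts. According to their methods, the authors removed adapters with Cutadapt, used STAR for alignment to hg19 and featureCounts for gene counting. The deposited values are raw counts per gene, without normalization. Versions, annotation, strandedness and the handling of reads that match several genes are not given in the sources used here. The 14 count columns were mapped to samples by their names.

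Each experiment was fitted separately in R 4.3.3 with edgeR 4.0.16: filterByExpr (13803 and 14470 genes kept), TMM scaling, a robust quasi-likelihood test and Benjamini-Hochberg adjustment over all tested genes, with calls at an FDR of 0.05. Standard errors were derived from the log2 fold change and its F statistic, and log2 CPM used a prior count of 2. DESeq2 1.42.0, which the authors used, and limma 3.58.1 (voom) were alternatives, beside other scalings and filters, a replicate block, in parental cells a term that contrasts replicates 1 and 2 with replicates 3 and 4, and leaving out each library in turn. Shares and ratios were compared by exact two-sided permutation tests over libraries. Levels per kb used merged GENCODE exons (GRCh37), or the canonical transcript as an alternative added later. RefSeq promoter sequences were located in hg19 by exact match with Python 3.11.15.

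The rule for the 8 genes used position and name alone, but it, the lists and the tests were set with earlier results of these data known. The 8 genes and MYCN were always named. From each other list up to 2 called genes of largest absolute log2 fold change were named, with partners of the same complex, and the 5 genes nearest to DDX1 and to NBAS. Values outside these rules, such as the markers named, were chosen after being seen. Other markers are given in counts and sums only, and 1 marker's own values are not reported here.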

Additional observations from a re-analysis of the deposited data

Results flagged for a closer look

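Among 40 sets of 4 parental libraries examined (CPM, ratios to MYCN and between neighbours, and shares), 1 held a library apart from the rest. MYCN was at 2789 CPM in DMSO replicate 3 and at 2636 to 2647 CPM in the other 3 DMSO libraries, a gap of 0.932 of the group's range. Chance alone marks such a value in about 0.05 of sets. Groups of 3 libraries were not examined in this way.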

How the results depend on the processing

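With OmoMYC, the number of neighbours called was 8 (3 higher, 5 lower) under all 15 alternatives, and leaving out single libraries gave 8 to 8. Of 135 log2 fold changes of the 8 genes and MYCN under these settings, 135 kept their direction and their call. With dTAG47 the number was 0 under 17 of 18 alternatives (0 to 0 as single libraries were left out) and 1 with the factor for replicates 1 and 2 against 3 and 4, where GEN1 (-0.12, adjusted p = 0.0479) and MYCN (0.09, adjusted p = 0.045) passed. That factor raised the calls over all genes from 23 to 794, DESeq2 gave 59, and leaving out single libraries gave 6 to 84, highest without dTAG47 replicate 2. The replicate block gave 8 neighbours called with OmoMYC (8100 genes in all) and 0 with dTAG47 (668 genes in all). Deviations of same-numbered libraries correlated at -0.0697 to 0.293 in the OmoMYC experiment and 0.00931 to 0.16 in the parental one, not over 0.1 in every pair, so the numbers were not taken to pair the samples. Differently numbered DMSO and dTAG47 libraries correlated at 0.08426 to 0.2467 within replicates 1 and 2 or within 3 and 4. Across these sets they correlated at -0.2255 to -0.01911. Near 0, uncalled values changed sign: DDX1 with dTAG47 was 0.00268 and 0.00254 without DMSO replicates 1 and 2, and VSNL1 was -0.04, -0.08 and -0.15 without DMSO replicates 1 and 3 and dTAG47 replicate 2. Among log2 ratios, DDX1 to MYCN with OmoMYC ranged from -0.22 to 0.07 and GEN1 to MYCN from -0.26 to 0.05, both highest without EGFP replicate 1. NBAS to MYCN ranged from -0.06 (without EGFP replicate 3; -0.01 without replicate 2) to 0.18. With dTAG47, VSNL1 to MYCN ranged from -0.23 to 0.01 (without DMSO replicate 2 or dTAG47 replicate 3) and NBAS to DDX1 from -0.03 to 0.01 (without dTAG47 replicate 1). FAM49A to MYCN with dTAG47 was -0.38 over all libraries (exact permutation p = 0.0571, adjusted 0.229) and ranged from -0.46 (without dTAG47 replicate 2, where the groups did not overlap and the unadjusted p passed) to -0.23 (without dTAG47 replicate 3). SMC6 to MYCN with OmoMYC ranged from -0.31 (without EGFP replicate 3) to -0.02 (without EGFP replicate 1). The difference in the neighbours' share of counts was -0.93 to -0.566 percentage points with OmoMYC and -0.116 to -0.0168 with dTAG47 as single libraries were left out. Causes of these shifts were not tested. VSNL1 and FAM49A had few counts in 3 groups, so small changes there were not detectable at this depth.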
